A study of Homo sapiens with 4 samples.

Results

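The secondary (specific) and gelatinase granules of neutrophils were represented by 10 genes, LTF, LCN2, CAMP, CEACAM8, MMP8, MMP9, PGLYRP1, OLFM4, CRISP3 and ARG1. They were taken by gene name under a rule that uses no measured value, though with earlier results of these data known. Every probe that the array lists under one of these names was used. This gave 11 probes, 2 for OLFM4 and 1 for each other gene, of 41000 probes on the array. The expression of these genes was compared between naive NB4 cells and arsenic trioxide (ATO) resistant NB4 cells. NB4 is an established human cell line of acute promyelocytic leukemia (APL), a leukemia of promyelocytes driven by the fusion of PML with the retinoic acid receptor gene RARA. ATO is an arsenic drug that leads to the degradation of this fusion protein. Both lines were cultured in RPMI with 10% FBS. The resistant line, written NB4-VM-AsR1 in the sample labels and NB4-EV-AsR1 in the methods, was raised in-house from NB4 and kept out of ATO for 1 week before it was used. Total RNA of 2 flasks of each line was measured on 4 arrays of 1 slide, 1 flask per array. The 2 lines lay at different positions on the slide, and position and line cannot be told apart. As a single resistant line was measured, the p-values below describe the spread between flasks, not between independently raised resistant lines.

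Neutrophil granules are filled in sequence as the cell matures in the bone marrow. Azurophil granules, with myeloperoxidase and elastase, are made in promyelocytes, specific granules with lactoferrin and lipocalin-2 in myelocytes and metamyelocytes, and gelatinase granules with MMP9 in band cells. A granule receives the proteins made at its time, and transcription of the specific granule genes is known to need C/EBP-epsilon. APL cells are arrested at the promyelocyte stage, and the secondary granule genes are widely used as a sign of maturation beyond that stage.

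The promoters of 8 of the 10 genes were matched by symbol in a RefSeq table (GRCh38.p14), as 10 promoters, since LTF has 3 starts. MMP9 and PGLYRP1 were not matched. The 250 bases before the start are printed for CAMP, the member that rose in the resistant line, and for LCN2, a member not well above background in either line, because both hold the core half-site of the C/EBP motif. CAMP lies at chr3:48223245-48223494 and LCN2 at chr9:128149203-128149452, both on the plus strand. Capitals mark GCAAT or its reverse complement, ATTGC.
CAMP: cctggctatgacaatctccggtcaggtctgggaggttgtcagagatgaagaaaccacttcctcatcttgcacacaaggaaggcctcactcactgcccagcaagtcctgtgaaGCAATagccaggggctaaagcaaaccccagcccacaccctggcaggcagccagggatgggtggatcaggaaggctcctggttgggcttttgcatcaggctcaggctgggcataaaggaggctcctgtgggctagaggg
LCN2: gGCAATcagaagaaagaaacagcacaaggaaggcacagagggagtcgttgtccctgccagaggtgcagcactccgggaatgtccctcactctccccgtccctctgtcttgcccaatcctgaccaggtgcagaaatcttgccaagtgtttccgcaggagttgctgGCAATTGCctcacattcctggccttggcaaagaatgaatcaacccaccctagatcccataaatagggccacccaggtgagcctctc

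The CAMP promoter held 1 such half-site, 138 bases before the start. The LCN2 promoter held 3, at 249, 86 and 83 bases before the start, of which the last 2 overlap on opposite strands. On both strands, GCAAT was found in 6 of the 10 member promoters, those of ARG1, CAMP, CEACAM8, CRISP3, LCN2 and MMP8, and in 21.3% of all 35116 promoters of the same length. The PU.1 core GAGGAA was also found in 6 of the 10, those of CAMP, CRISP3, MMP8 and all 3 LTF starts, against 23.6% of all promoters. The AP-1 motif TGANTCA was found in LCN2 and OLFM4, against 6.57% of all, and the TATA box letters TATAAA in ARG1 and MMP8, against 10.7% of all. These are matches of letters and say nothing of binding. CAMP, the matched gene with a signal, held GCAAT and GAGGAA, as did genes without one. The CAMP promoter held neither the AP-1 motif nor the TATA box letters.

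Of the 10 genes, 2 gave a signal well above background, and they moved in opposite directions. MMP9 fell 4.04-fold in the resistant line and CAMP rose 4.13-fold. The other 8 genes, with 9 probes, were not well above background on any array of either line, so that they were not tested and have no fold change. Levels are given as the log2 of the background-subtracted signal minus the 75th percentile of the array, and a difference of 1 is a 2-fold change. "Well above background" is the scanner software's own mark on a spot. Probes that carried this mark in both flasks of a line were tested with limma, and a call needed an adjusted p (Benjamini-Hochberg) below 0.05 together with a 2-fold change or more. Both tested members were called, against 5.27% of all 28053 probes tested, 2.3% being higher and 2.97% lower in the resistant line. A share over 2 genes carries little information, and these 2 are the members that passed the filter on signal.

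**Figure D1:**
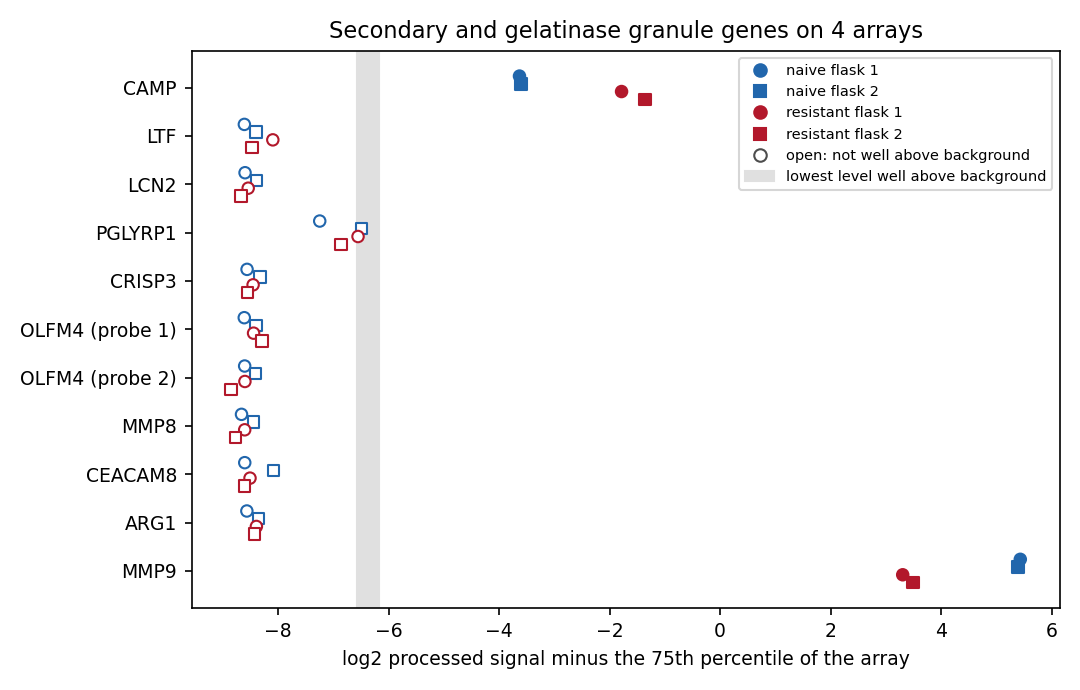
The 11 probes of the 10 granule genes (rows) against the level on each of the 4 arrays (horizontal axis, log2 signal minus the 75th percentile of the array). Points are flasks, coloured by line, open points were not well above background, and the grey band spans the lowest level well above background on the 4 arrays. Only MMP9 and CAMP lie to the right of the band, MMP9 further left in the resistant flasks and CAMP further right.

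MMP9 encodes gelatinase B, the protease that gives the gelatinase granule its name and that degrades denatured collagen and basement membrane collagen. Its probe (chr20:44645121-44645180, hg19, plus strand) had a level of 5.43 and 5.39 in the naive flasks and of 3.31 and 3.49 in the resistant flasks. Both resistant flasks lay below both naive flasks, as did the lines of 52.8% of all probes tested in one direction or the other, and the flasks of each line lay close together. The mean was 5.41 ± 0.03 (SD, n = 2) in naive and 3.40 ± 0.13 (SD, n = 2) in resistant cells. The log2 change was -2.01 (SE 0.22, 95% confidence interval -2.58 to -1.45, limma adjusted p = 0.00904). Taken pair by pair, a naive flask exceeded a resistant flask 3.73-fold to 4.37-fold, whereas the naive flasks differed 1.03-fold from each other and the resistant flasks 1.14-fold. Of all probes tested, 669 (2.38%) fell by as much or more.

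MMP9 is also one of the few genes that the array carries in 10 spots of the same probe, so that the measurement within an array could be checked. The signal of the spots used ran from 45933 to 47658 and from 35891 to 38726 on the naive arrays and from 9887 to 10640 and from 8755 to 10381 on the resistant arrays. No naive spot overlapped a resistant spot. The SD between spots on the log2 scale was 0.017 and 0.037 for naive and 0.032 and 0.081 for resistant flasks, well below the difference between the lines. The scanner software marked 3 spots of the first naive array and 1 of the first resistant array as outliers, and they were left out. With or without them, the spots of the first naive array had levels from 5.41 to 5.47. No pixel of these spots was saturated.

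**Figure D2:**
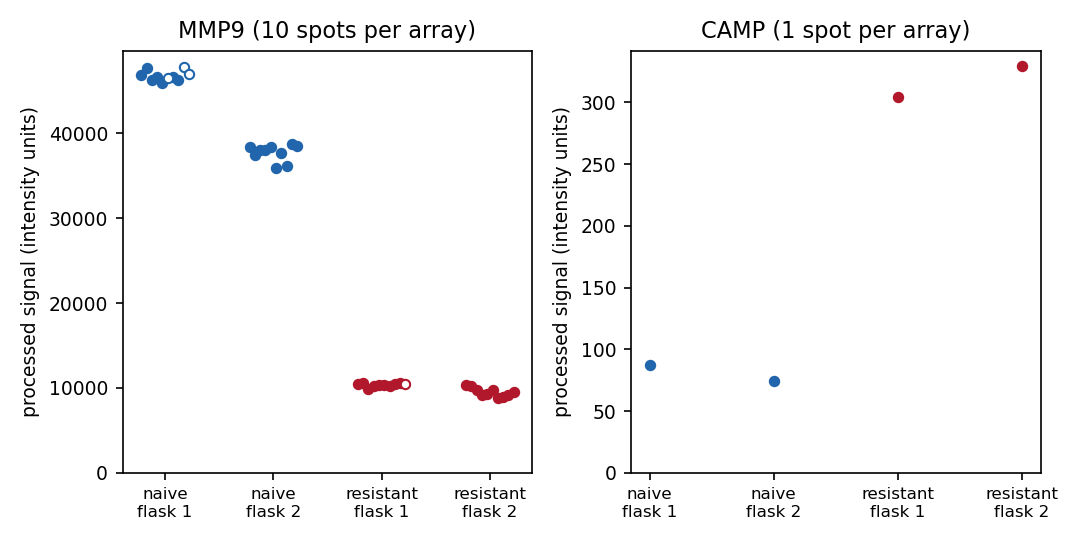
Processed signal (vertical axis, linear scale, arbitrary units of the scanner) of each spot of the MMP9 and CAMP probes on the 4 arrays. Filled points were used and open points were marked as outliers and left out. The MMP9 spots of the naive arrays lie at 35891 or higher and those of the resistant arrays at 10640 or lower, and the single CAMP spot per array lies higher in both resistant flasks.

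CAMP encodes the cathelicidin hCAP18, an antimicrobial protein of the specific granule matrix from which proteinase 3 cuts the peptide LL-37. The processed signal of its probe (chr3:48266856-48266915, hg19, plus strand) was 87.1 and 74.0 for naive and 304 and 329 for resistant flasks. These correspond to levels of -3.63 and -3.60 in the naive and -1.78 and -1.36 in the resistant flasks. Both resistant flasks were higher than both naive flasks, and the resistant flasks differed more from each other than the naive flasks did. The mean was -3.62 ± 0.02 (SD, n = 2) in naive and -1.57 ± 0.30 (SD, n = 2) in resistant cells. The log2 change was 2.05 (SE 0.25, 95% confidence interval 1.41 to 2.68, limma adjusted p = 0.0132). A resistant flask exceeded a naive flask 3.53-fold to 4.84-fold, against 1.02-fold between the naive and 1.34-fold between the resistant flasks. Of all probes tested, 491 (1.75%) rose by as much or more. CAMP has 1 spot per array, so that the error within an array is not known. In RNA of whole cultures, more cells that express a gene and more RNA per cell cannot be told apart, and the same holds for the loss of MMP9.

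Both calls rested on having both resistant flasks. Without the first resistant flask the change was -1.92 for MMP9 (limma adjusted p = 0.110) and 2.26 for CAMP (adjusted p = 0.0608), and without the second it was -2.11 (adjusted p = 0.0793) and 1.83 (adjusted p = 0.134). With a naive flask left out, whichever it was, both genes were called. After the normexp background correction the change was -2.07 for MMP9 (adjusted p = 0.596) and 1.33 for CAMP (adjusted p = 1.000), a setting under which limma called 0 of all probes, with 928 at an unadjusted p below 0.05. The sign of both changes was the same under each of 20 alternative settings.

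**Figure D3:**
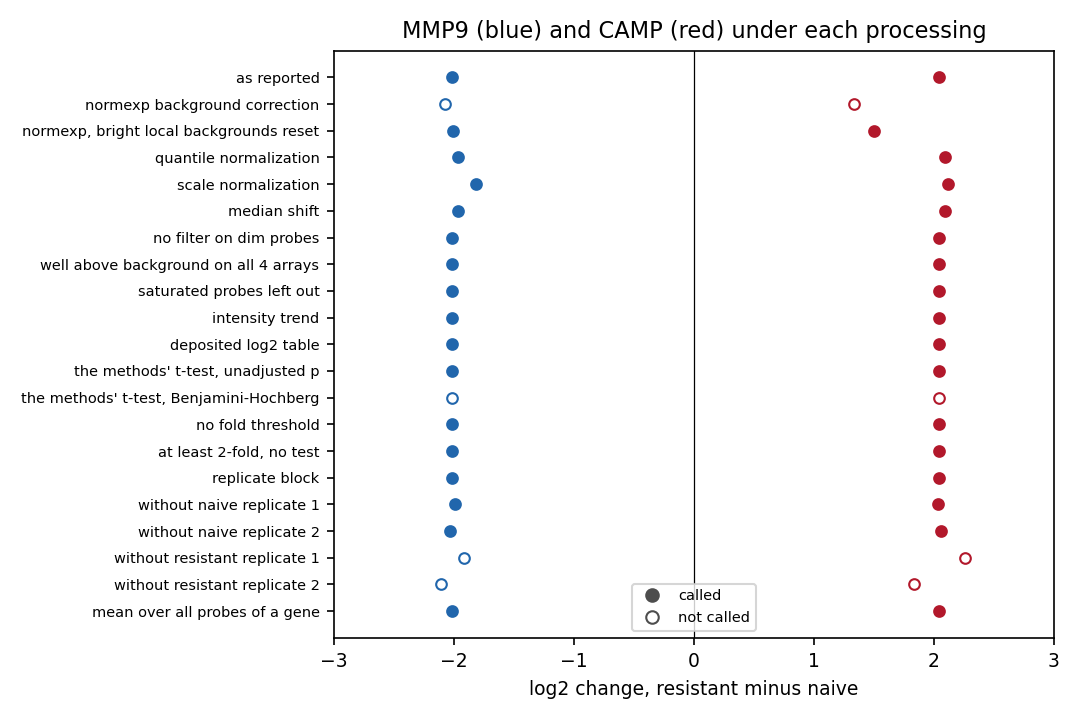
Log2 change between resistant and naive cells (horizontal axis) of MMP9 (blue) and CAMP (red) in the main fit and under each alternative setting (rows). Filled points were called and open points were not. MMP9 lies between -2.11 and -1.82 and CAMP between 1.33 and 2.26.

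The remaining members were at or near the background in both lines. Of their 36 spots, 29 hold a surrogate that the scanner software writes in place of a signal too low to be measured, so that their small values are not levels. They are set here against the negative control spots, which number 142 to 147 per array after removal of outliers and carry sequences that match no human transcript. On the arrays, the lowest signal well above background was 13.2 and 12.5 in the naive and 13.1 and 8.82 in the resistant flasks.

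PGLYRP1, a bactericidal peptidoglycan recognition protein of specific granules, came closest. Its probe (chr19:46522536-46522595, hg19, minus strand) had a signal of 7.11 and 9.97 on the naive and 11.2 and 7.24 on the resistant arrays. It lay above every negative control spot and was significantly above background by the software's weaker test on all 4 arrays, but was not well above background on any. At levels of -7.25 and -6.49 in the naive and -6.55 and -6.86 in the resistant flasks the lines overlapped.

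LTF encodes lactoferrin, the iron-binding protein of the specific granule matrix. Its probe (chr3:46479431-46479489, minus strand) had a signal of 2.76 and 2.66 on the naive and 3.83 and 2.37 on the resistant arrays. The first resistant array was the only one on which it passed the weaker test, and there it lay above all 146 negative control spots. LCN2 encodes lipocalin-2, which binds bacterial siderophores and is found in part in a complex with MMP9. Its probe (chr9:130914244-130914303, plus strand) had a signal of 2.79, 2.68, 2.81 and 2.07 in the same order and passed the weaker test on none. LTF and LCN2 are the defining members of the specific granule, and neither was well above background in naive or resistant cells.

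CEACAM8 (CD66b), a membrane glycoprotein of specific granules that is used as a surface marker of granulocytes, had a signal of 2.77 and 3.32 on the naive and 2.88 and 2.16 on the resistant arrays (chr19:43084506-43084565, minus strand). It passed the weaker test on the second naive array only. OLFM4, olfactomedin-4, which is found in the specific granules of only a part of neutrophils, was read by 2 probes. The probe at chr13:53624969-53625028 gave 2.76 and 2.67 in naive and 3.01 and 2.68 in resistant flasks and passed the weaker test on the second resistant array only. The probe at chr13:53626095-53626154 gave 2.77, 2.64, 2.70 and 1.82 and passed it on none. Isolated passes on single arrays thus occurred in both lines.

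The other members passed the weaker test on no array. MMP8, the neutrophil collagenase (chr11:102583734-102583793, minus strand), had signals from 1.93 to 2.69. CRISP3, a cysteine-rich secretory protein (chr6:49696178-49696237, minus strand), had signals from 2.24 to 2.99. ARG1, arginase 1, which neutrophils store in granules and which splits arginine (chr6:131905373-131905432, plus strand), had signals from 2.46 to 3.12. None of these ranges allows a comparison between the lines.

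The neighbourhood of these genes was described with lists of other genes, each gene being represented by its brightest probe. Over all 20973 gene and transcript names tested in this way, 5.45% were called, 2.48% higher and 2.97% lower, and the median log2 change was -0.01. The median over all probes shifted by 0.10 on the log2 scale under scale normalization and by 0.15 under normexp, and the changes below are to be read against such shifts.

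Among the 28 other proteins of specific and gelatinase granules on the array, 25 genes were tested, 4 were called higher, 3 were called lower and 18 were not called, so that 28.0% were called. Their median log2 change was 0.07, with 14 positive and 11 negative values. Genes of the same granules thus moved both ways, as MMP9 and CAMP did. FOLR3 was not well above background on any array, HPSE was so only on the first naive array, and the ADAM8 spot of the first naive array was marked as an outlier, so that these 3 were not tested.

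The highest was CHI3L1, a chitinase-like protein of specific granules, with levels of -0.18 and -0.63 in naive and 3.27 and 3.39 in resistant flasks. The log2 change was 3.74 (SE 0.26, limma adjusted p = 0.002), and a second probe gave 3.58 and was called as well. HP, haptoglobin, which binds hemoglobin, rose from -2.03 and -2.91 to 0.95 and 1.32, a log2 change of 3.61 (SE 0.36, adjusted p = 0.007 from limma). Its near-identical copy HPR could contribute to the signal of the HP probe. SLPI, an inhibitor of neutrophil elastase and cathepsin G, had 0.89 and -0.51 in the naive flasks, which differed from each other, and 3.15 and 3.46 in the resistant flasks, a log2 change of 3.12 (SE 0.49, limma adjusted p = 0.030). ITGAM (CD11b), the integrin subunit that specific and gelatinase granules carry to the cell surface, rose from -0.79 and -0.98 to 0.99 and 1.26, a log2 change of 2.01 (SE 0.24, adjusted p = 0.011 by limma). In all 4 genes both resistant flasks lay above both naive flasks, which adds little for genes named because they were called. The lines did not overlap in 52.8% of all probes tested.

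FCN1, the pattern recognition protein ficolin-1 of gelatinase and ficolin-rich granules, fell from 2.09 and 1.75 in naive to -0.74 and -0.53 in resistant flasks, a log2 change of -2.55 (SE 0.25, limma adjusted p = 0.006). All 3 of its probes were called, between -2.55 and -2.31. QPCT, glutaminyl cyclase, fell from -2.79 and -3.17 to -5.09 and -5.26, a log2 change of -2.20 (SE 0.25, adjusted p = 0.010 from limma), and its other probe by 2.17 on the log2 scale. MMP25, leukolysin, a membrane-anchored metalloproteinase, fell from -0.39 and -0.04 to -1.82 and -1.69, a log2 change of -1.54 (SE 0.24, limma adjusted p = 0.030). MMP9 and MMP25, the metalloproteinases of gelatinase granules that were tested, were thus both lower in the resistant line. Of these 7 called genes, CHI3L1 and HP were called without the first resistant flask, and CHI3L1, HP and FCN1 without the second. After normexp none of them was called and QPCT had -0.43, and by the methods' t-test, adjusted, none was called either. QPCT was also not called with bright local backgrounds reset before normexp (-0.95), where the other 6 were. SLPI and MMP25 also lost the call without a filter on dim probes, and SLPI after quantile normalization.

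TCN1, the vitamin B12 binding haptocorrin of specific granules, had -5.27 and -4.08 in naive and -6.83 and -7.08 in resistant flasks. Neither resistant array had it well above background. By the mean of the flasks this puts the resistant line at least 3.42-fold lower, and the adjusted p of 0.0519 for TCN1 in limma was just outside the threshold. It was called with a naive flask left out, whichever it was, after scale normalization (adjusted p = 0.00495) and after a median shift (adjusted p = 0.033), whereas its change was -0.09 after normexp and -0.43 with bright local backgrounds reset. CYBB, the large subunit of the NADPH oxidase that sits in the specific granule membrane, had a log2 change of 0.79 (adjusted p = 0.175) and was not called.

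No regulator of granule genes was called in the main fit. Of 20 such genes on the array 18 were tested and limma called 0, with 4 at an unadjusted p below 0.05. The methods' t-test had 4 at an unadjusted p below 0.05 and called 0 once adjusted. The median log2 change was -0.04, with 8 positive and 10 negative values. The largest change by brightest probe was that of GFI1B, at -1.24 (SE 0.25, limma adjusted p = 0.059), and its other probe had -0.49 (adjusted p = 0.316). STAT5A had -0.91 (limma adjusted p = 0.115) and its other probe -1.31 (adjusted p = 0.062). CEBPE, which encodes C/EBP-epsilon, had levels of 3.01 and 3.29 in naive and 2.46 and 2.59 in resistant flasks. Both resistant flasks were below both naive flasks, with a log2 change of -0.62 (SE 0.24, limma adjusted p = 0.245). CEBPA, the factor of early granulocyte commitment, had 4.96 and 4.23 in naive and 4.72 and 4.52 in resistant flasks, and the lines overlapped. SPI1, which encodes PU.1, had -2.22 and -2.35 against -1.94 and -2.80, and GFI1, a repressor needed for neutrophil maturation, had 2.82 and 2.52 against 2.54 and 2.78. Both overlapped as well. CSF3R, the receptor of the granulocyte growth factor G-CSF, had -2.29 and -1.73 against -1.56 and -1.68, a log2 change of 0.39 (adjusted p = 0.504). The main probe of MYC was saturated on all arrays and bounds no change. Its other probe, which was dimmer and not saturated, had a log2 change of -0.73 and was not called (limma adjusted p = 0.434).

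**Figure D4:**
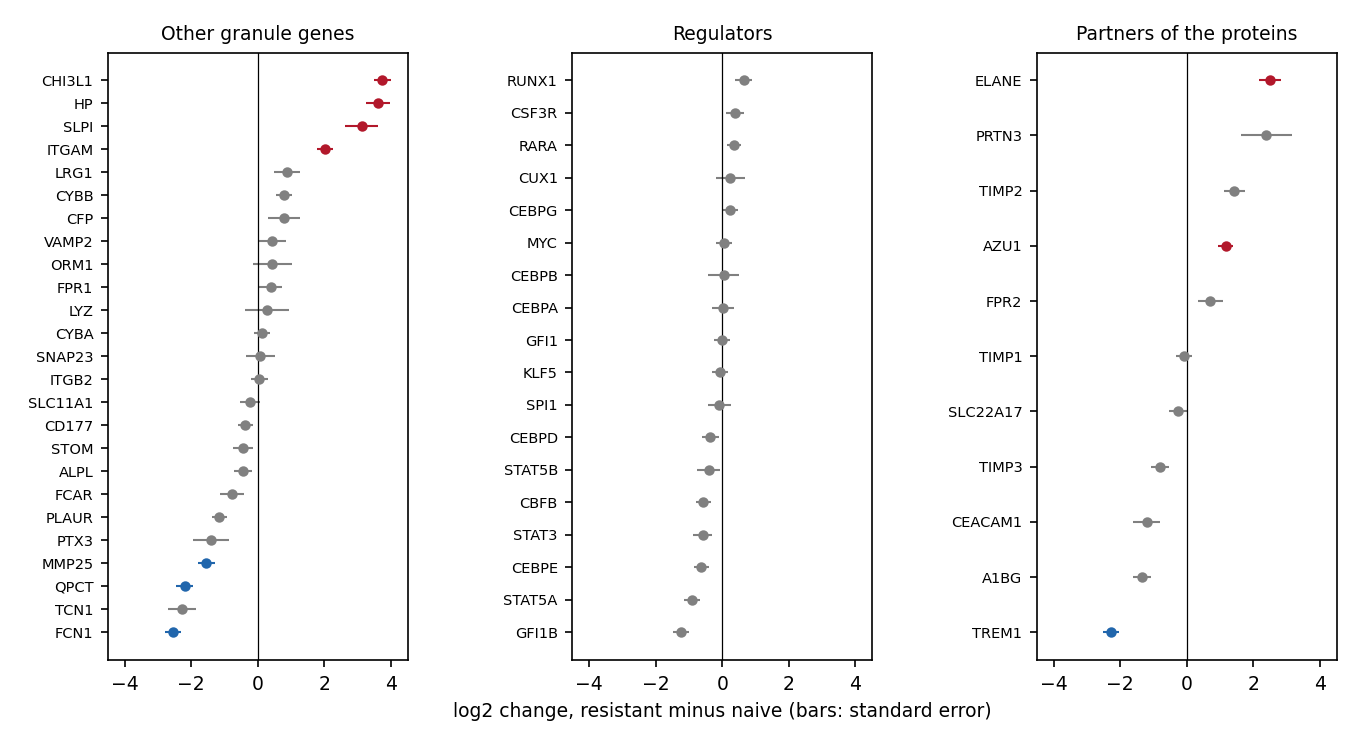
Log2 change between resistant and naive cells with its standard error (horizontal axis) of the tested genes of 3 lists, one per panel. Red genes were called higher, blue genes were called lower and grey genes were not called. CHI3L1, HP, SLPI and ITGAM stand at the high end of the granule genes and FCN1, QPCT and MMP25 among the low ones, while no regulator was called.

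Partners of the member proteins were taken as a further list, of which 16 were on the array, 11 were tested, 2 were called higher and 1 was called lower (27.3% of those tested, median log2 change -0.07). TIMP1, the main inhibitor bound to MMP9, had 0.48 and 0.82 in naive and 0.55 and 0.61 in resistant flasks, so that its values overlapped between the lines while those of MMP9 did not (log2 change -0.07, limma adjusted p = 0.904). PRTN3, proteinase 3, which cuts the CAMP product, had 3.16 and 0.80 in naive and 4.43 and 4.32 in resistant flasks. The naive flasks differed widely and the log2 change of 2.39 was not called (SE 0.76, adjusted p = 0.179). ELANE, neutrophil elastase, had -5.74 and -6.56 in naive flasks, where it was well above background on 1 of 2 arrays, and -3.66 in both resistant flasks, a log2 change of 2.49 (SE 0.33, adjusted p = 0.017 by limma). AZU1, azurocidin, rose from -0.77 in both naive flasks to 0.40 and 0.39, a log2 change of 1.17 (SE 0.22, adjusted p = 0.048 by limma). TREM1, the receptor that PGLYRP1 binds, fell from -2.09 and -2.29 to -4.32 and -4.59, a log2 change of -2.26 (SE 0.24, limma adjusted p = 0.008). With a resistant flask left out, whichever it was, ELANE, AZU1 and TREM1 lost the call. They also lost it by the methods' t-test, adjusted, and after normexp, which gave 0.78 for ELANE and -0.74 for TREM1. With bright local backgrounds reset, ELANE was not called (0.84, adjusted p = 0.071) and TREM1 was called at -1.27. ELANE was in addition not called after quantile normalization, and AZU1 was not called with dim probes kept, under the filter that asks for signal on all 4 arrays (adjusted p = 0.057) or with the replicate block. CEACAM6, a partner of CEACAM8, was not well above background on any array with either of its 2 probes.

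Genes related in sequence to the members formed a further list. Of 36 paralogues on the array, 16 were not well above background on any array and 15 were tested, of which 0 were called higher and 2 were called lower (13.3% of those tested, median log2 change -0.25). RBP4, the retinol-binding lipocalin related to LCN2, fell from -2.66 and -2.75 to -5.04 and -5.29, a log2 change of -2.46 (SE 0.23, limma adjusted p = 0.005). It was not called without the second resistant flask, by the methods' t-test, adjusted, or after normexp, which gave -0.51, and had -1.09 with bright local backgrounds reset. AGMAT, an enzyme of the arginase family, fell from -0.27 and -0.29 to -1.73 and -1.44, a log2 change of -1.31 (SE 0.23, limma adjusted p = 0.044). It lost the call under 11 of 20 alternatives, leaving out a resistant flask among them, and its other probe had -1.15 (adjusted p = 0.189). ARG2, the mitochondrial arginase, had -3.65 and -5.27 in naive and -4.04 and -4.19 in resistant flasks, which overlapped (log2 change 0.34, adjusted p = 0.781).

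The azurophil granule genes, filled one stage earlier, were compared as the most similar group. Of 20 on the array, 19 were tested, against 2 of the 10 secondary and gelatinase granule genes, and each of the 20 was well above background on at least 1 array. The called genes, ELANE and AZU1, were 2 of the 19 tested and both higher, and the median log2 change was 0.21, with 14 positive and 5 negative values. DEFA4, a defensin, had 0.33 and 1.22 in naive and -1.08 and -0.92 in resistant flasks. Its log2 change of -1.78 (SE 0.35, limma adjusted p = 0.058) was just outside the threshold. MPO and SRGN were saturated on all 4 arrays, so that their change is not known. CTSG (0.78) and DEFA3 (0.91) were saturated on both resistant arrays and CD63 on the first naive array, and these genes enter the median with such values. BPI, a bactericidal protein of azurophil granules, had no resistant array well above background. By the mean of the flasks this puts that line at least 2.17-fold lower. Its naive flasks differed (-6.29 and -4.37), the first lying near the lowest level well above background, and the change was not called (limma adjusted p = 0.242).

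Markers of cell types are given as summed linear levels of each list in both flasks. The sums of the promyelocyte list and of the fibroblast or endothelial list overlapped between the lines. Promyelocyte markers gave 90.4 and 96.0 in naive and 95.5 and 110 in resistant flasks, a sum of which saturated MPO makes up the larger part. Of 6 tested, ELANE and AZU1 were called higher and ANPEP (CD13) lower (log2 change -1.83, limma adjusted p = 0.011), and CD33 was not called (-0.29). Monocyte or macrophage markers gave 3.54 and 3.88 in naive and 7.17 and 8.05 in resistant flasks. CSF1R carried this difference (levels of 1.47 and 1.68 in naive and 2.70 and 2.90 in resistant flasks, log2 change 1.23, limma adjusted p = 0.052), while the other 3 tested, CD14, CD68 and VCAN, had -0.50, -0.18 and -0.18. In this list 4 of 6 genes were well above background on all arrays, FCGR3A and CD163 on none, and 0 of the 4 tested were called by limma, with 1 at an unadjusted p below 0.05 (2 by the methods' t-test, which called 0 after adjustment). Eosinophil, basophil or mast cell markers ran from 63.2 to 73.1 in naive and from 45.4 to 46.5 in resistant flasks. That sum is mostly PRG2, saturated on the first naive array, and HDC, which was called lower (-3.37, limma adjusted p = 0.003). EPX (1.94, limma adjusted p = 0.025) and CLC (2.41, limma adjusted p = 0.007) were called higher. CLC was well above background on neither naive array, so that 2.41 is not a measured change. By the mean of the flasks, the lower bound on the rise of CLC falls short of 2-fold. TPSAB1 had levels of -5.32 and -3.60 in naive flasks and was well above background on neither resistant array. By the mean of the flasks this puts the resistant line at least 3.94-fold lower, but the naive flasks differed and the change of TPSAB1 was not called (limma adjusted p = 0.137). Lymphocyte markers were at least 5.28 in naive and at most 3.34 in resistant flasks, and epithelial markers ran from 7.58 to 10.4 and from 3.96 to 4.40. Fibroblast or endothelial markers ran from 0.890 to 1.22 in naive and from 1.22 to 1.33 in resistant flasks, with COL1A1, COL1A2 and COL3A1 on no array, and erythroid or platelet markers from 0.375 to 0.680 and from 0.122 to 0.183. In these last 4 lists, from lymphocyte to erythroid or platelet, CD3D (-8.29), KRT18 (-4.16) and ITGA2B (-2.40) were the genes called, each lower in the resistant line (limma adjusted p = 0.000753, 0.002 and 0.032). CD3D was well above background on neither resistant array, so that -8.29 is not a measured change. By the mean of the flasks its bound puts that line at least 167-fold lower. Since ITGAM, FCN1 and MMP9 are also expressed by monocytes, the part of such markers in these changes was not tested. Across all probes tested, which are not independent replicates, the naive flasks correlated at r = 0.976, the resistant flasks at r = 0.994 and flasks of different lines at r = 0.947 to 0.951. Per array, 68.1% to 68.9% of probes were well above background.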

How the data were processed

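Per the file headers, the authors scanned 4 one-colour arrays and extracted them with Agilent Feature Extraction 10.5.1.1 (probe positions on hg19), which gives each spot a background-subtracted intensity. They also deposited a log2 table, normalized by a 75th percentile shift, with which the values here correlated at r = 0.9998 or higher across probes. The log2 of the intensity was taken in R 4.3.3 without control and outlier spots, spots of a probe were averaged, the 75th percentile was subtracted, and probes with no spot left on an array were dropped. Symbols were updated through RefSeq accessions for 26222 of 41000 probes.

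The test was that of limma 3.58.1 (lmFit, eBayes), with Benjamini-Hochberg adjustment over 28053 probes. With 2 flasks per line an exact two-sided permutation test cannot go below p = 0.333, so the calls rest on the spread pooled over probes. A bound sets the mean of the brighter line's flasks against a mean over the other line's flasks. For each of the latter the lowest signal well above background or the probe's own was taken, whichever was higher. Such a bound holds for the means and not for each pair of flasks. The genes and lists were chosen with earlier results of these data known. Named were all members, fixed regulators and partners, and called or bounded genes of each list. CYBB, PRTN3, HPSE, ADAM8, FOLR3, MYC, MPO, SRGN, CD33, DEFA4, GFI1B and STAT5A were added after their values were seen. Alternatives were background correction, normalization, filters, variance model, the deposited table, the methods' t-test, thresholds, the replicate block, each flask left out and the mean over probes. Precision is limited by the number of arrays.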

Additional observations from a re-analysis of the deposited data

How the results depend on the processing

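All alternatives were planned. Of the 10 members, 2 were called, and 0 under normexp (limma, with 2 having an unadjusted p below 0.05), 0 by the methods' t-test once adjusted (2 unadjusted) and between 0 and 2 with 1 flask left out, 0 without either resistant flask. The change of MMP9 and CAMP was then -2.07 and 1.33 after normexp, -2.01 and 2.05 in the t-test (adjusted p = 0.149 and 0.221), and between -2.11 and -1.92 and between 1.83 and 2.26 with 1 flask left out. With bright local backgrounds reset before normexp, both were called (-2.01 and 1.50). Of all probes 1479 were called, and 0 under normexp (limma, 928 unadjusted), 760 when well above background on all 4 arrays, 0 by the adjusted t-test (4137 unadjusted), 3436 at 2-fold with no test, and 719 to 4511 with 1 flask left out (3715 and 4511 without the first and second naive flask, 737 and 719 without the first and second resistant flask). Of the genes in the lists of other granule genes, regulators, partners and azurophil genes 10 were called, and 0 under normexp (limma, 10 unadjusted), 0 by the adjusted t-test (18 unadjusted), 20 at 2-fold with no test, and 2 to 26 with 1 flask left out (26 and 20 without the first and second naive flask, 2 and 3 without the first and second resistant flask). A flask that is alone in its line is assumed to vary like the other pair. The cause was not tested.

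Among 398 values of other named genes, 319 had the direction and call of the reported value, 58 lost the call, 6 gained it and 15, all of genes without a call, reversed. CEBPA was -0.061 after normexp and -0.059 with the mean over probes, GFI1 was 0.017 after quantile normalization, 0.16 with scale normalization and 0.040 with a median shift, SPI1 was 0.075 after normexp and 0.016 with bright backgrounds reset, and TIMP1 was 0.053 with scale normalization. With 1 flask left out CEBPA lay between -0.34 and 0.39, GFI1 between -0.16 and 0.15, SPI1 between -0.51 and 0.35, TIMP1 between -0.24 and 0.10 and ARG2 between -0.47 and 1.15.

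With the replicate block, 1372 probes, 2 members (MMP9 -2.01, adjusted p = 0.0190, CAMP 2.05, adjusted p = 0.0206) and 10 list genes were called. The deviations of same-numbered flasks correlated at 0.119 over 2 pairs, too few to show pairing. Of the genes named, AZU1 and AGMAT were not called with the block. Signal over background limits 8 of the 10 members.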
